A study of Sus scrofa with 23 samples.

Results

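Pig embryos cloned by somatic cell nuclear transfer were followed here from the 2-cell to the 4-cell stage. The step was read in 4 of the 23 libraries of the series, namely the 2-cell and the 4-cell library of NT-D embryos and the 2-cell and the 4-cell library of NT-LW embryos. These libraries were taken by their labels, with no measured value involved. Of the 8603 genes of the deposited table, the 7685 with an FPKM value (fragments scaled by transcript length and library depth) of at least 1 in 1 or more of the 4 libraries were compared. The name of the deposited table calls its genes differentially expressed, so every share, median and scaling factor below holds for such a selection and not for all genes of the pig.

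The series set cloned embryos of Duroc and Laiwu donors beside embryos fertilized in vivo, from the oocyte or 1-cell stage to the blastocyst. NT-D embryos carried nuclei of ear fibroblasts from 1 Duroc boar aged 1 year, and NT-LW embryos nuclei of ear fibroblasts from 1 Laiwu boar of the same age, so that breed, animal and cell culture cannot be told apart. Both were built in enucleated oocytes from slaughterhouse ovaries that had matured in vitro, and both grew in PZM3 medium under low oxygen. IV-D embryos, used here as the in vivo reference for the same step, were flushed from Duroc sows inseminated with semen of the Duroc donor boar, and differed from the clones in oocyte source and in culture as well. The clones were all male, whereas each IV-D library mixed male and female embryos. Each clone library pooled about 5 to 10 embryos of good morphology, and polyadenylated RNA was amplified from whole embryos with the SMART-Seq v4 kit. There was 1 library per condition, so no spread between replicates exists for any value below and no p-value is given. The study also describes biological replicates of the NT-D and IV-D 4-cell stage, which were not analysed here.

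The first divisions of a pig embryo run on RNA and protein stored in the oocyte. Part of this maternal RNA is lost in waves while the embryonic genome begins to be transcribed, and in the pig the main wave of embryonic transcription is known to start around the 4-cell stage. In a cloned embryo the activated genome is that of a differentiated cell, whose chromatin has to be reprogrammed by oocyte factors before the embryonic genes can be read.

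Whole fragments could be recovered from the FPKM values, and the 4 libraries held between 15028088 and 20261305 fragments. The level of 3 fragments on a transcript of 1 kb lay between 0.148 and 0.200 FPKM. Relative scale differed between the libraries. Median-ratio factors over the 8232 genes detected in all 4 libraries were 0.820 for NT-D 2-cell, 0.992 for NT-D 4-cell, 1.15 for NT-LW 2-cell and 1.03 for NT-LW 4-cell embryos. A single gene without a symbol, ENSSSCG00000000296, took 22.4% of the FPKM sum at NT-D 2-cell and 21.9% at NT-LW 2-cell, whereas the mitochondrial COX3 led both 4-cell libraries with 8.16% and 8.29%. FPKM values are shares of a library, so fewer cells, less RNA per cell and a smaller share of the total cannot be told apart in them.

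Cell type markers were read in the same libraries. Oocyte transcripts were abundant in all of them, with 25 listed genes summing to 15134 and 9544 FPKM in the NT-D 2-cell and 4-cell library and to 16568 and 9026 FPKM in the NT-LW ones. The 15 fibroblast genes of the table summed to 133, 228, 110.2 and 255 FPKM (NT-D 2-cell, NT-D 4-cell, NT-LW 2-cell, NT-LW 4-cell, the order kept throughout). Among their defining genes COL1A1 lay between 2.0 and 3.81 FPKM, COL3A1 between 2.27 and 4.10 FPKM and FN1 below 1 FPKM, while COL1A2 was at 9.56, 14.5, 9.20 and 15.1 FPKM and VIM, the intermediate filament vimentin, at 1.73, 9.72, 2.49 and 8.22 FPKM. S100A4, which fibroblasts express, stood at 76.8, 95.3, 48.2 and 114 FPKM. It was at 0.00 in both oocyte libraries, at 63.9 and 76.1 FPKM in the NT-D and NT-LW 1-cell libraries and at 39.9 FPKM in the IV-D 1-cell library, and stood at 0.12 FPKM at IV-D 2-cell. The keratins KRT8 and KRT18 of the trophectoderm were below 1 FPKM in all 4 libraries, and its marker ELF3 below 0.1 FPKM. GATA3, of the same marker set, was at 0.13, 3.18, 0.17 and 3.48 FPKM.

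A gene was called when FPKM + 1 differed more than 2-fold between the stages, which is a log2 difference beyond 1, and FPKM reached 1 in either library. "Rose" and "fell" are used of such genes. The step of a gene is this log2 difference, 4-cell minus 2-cell. In NT-D embryos 1259 genes rose (16.4% of those compared) and 608 fell (7.91%). In NT-LW embryos 1254 genes rose (16.3%) and 1509 fell (19.6%). The groups shared 876 rising genes (11.4%) and 448 falling genes (5.83%), while 16 genes moved in opposite directions. The shared risers made up 69.6% of the NT-D and 69.9% of the NT-LW risers, and the shared fallers 73.7% of the NT-D but 29.7% of the NT-LW fallers. Across the 7685 genes the NT-D and NT-LW steps, which have no library in common, correlated with a Pearson r of 0.81 and a Spearman rho of 0.74, given as a description since genes are not replicates.

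**Figure D1:**
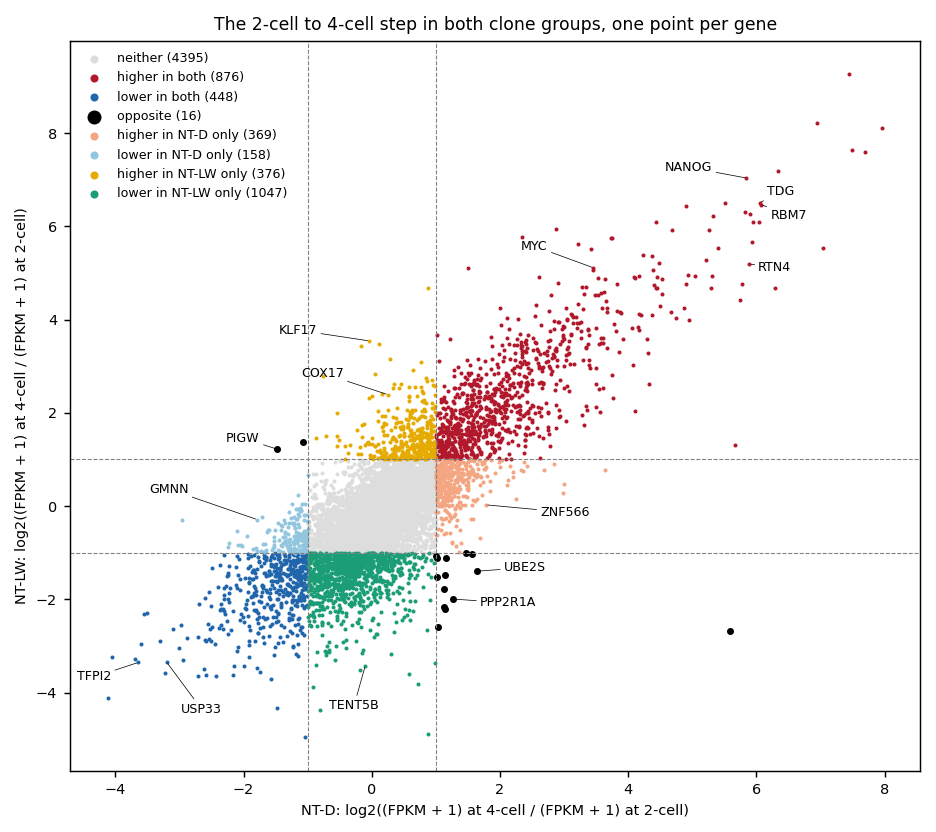
Step of each compared gene in NT-D embryos (horizontal axis) and NT-LW embryos (vertical axis), as log2 of FPKM + 1 at 4-cell over FPKM + 1 at 2-cell. Dashed lines mark the 2-fold limits and colours the classes, with the number of genes in brackets. The 876 shared risers reach furthest from the origin, and the 1047 genes lower in NT-LW only form a dense band below the lower limit.

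The split between rising and falling genes moved with the scaling. After division by the median-ratio factors, NT-D embryos had 1002 risers (13.0%) and 957 fallers (12.5%), and NT-LW embryos 1383 risers (18.0%) and 1230 fallers (16.0%). The share of risers among all called genes went from 67.4% to 51.1% in NT-D and from 45.4% to 52.9% in NT-LW. The median step over all genes compared was 0.18 in NT-D embryos as deposited and -0.17 in NT-LW embryos, and -0.03 in both after scaling. The shared classes kept most of their genes. There were 810 shared risers (10.5%) and 542 shared fallers (7.05%) after scaling, and 788 and 404 of these were the genes called as deposited. The shared risers then made up 80.8% of the NT-D and 58.6% of the NT-LW risers, and the shared fallers 56.6% of the NT-D and 44.1% of the NT-LW fallers. The classes of 1 group only and the opposite calls changed more in proportion than the shared classes, as the plot of class counts shows.

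**Figure D2:**
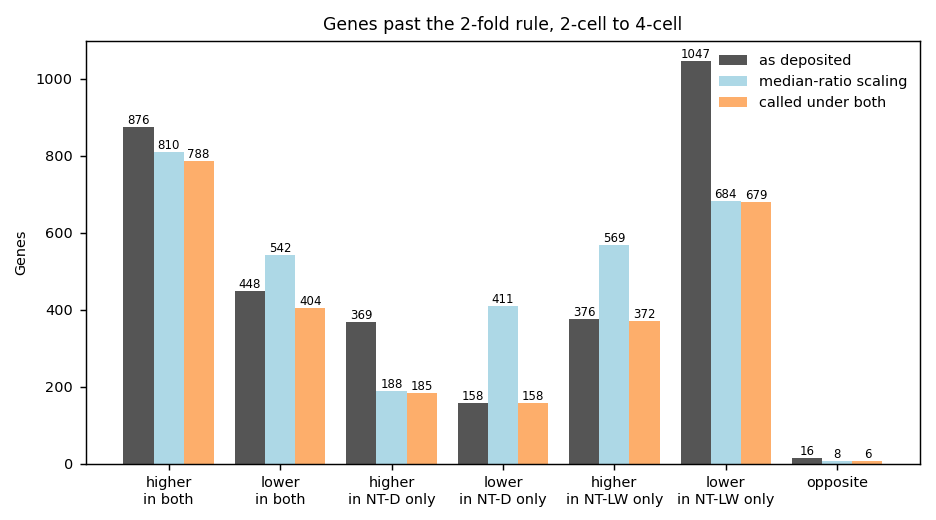
Number of genes (vertical axis) in each class as deposited, after median-ratio scaling, and called in the class under both. Genes higher in NT-D only went from 369 to 188, genes lower in NT-D only from 158 to 411, and the shared risers from 876 to 810.

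Genes that rose in both groups had a median step of 1.91 in the Duroc clones and 2.13 in the Laiwu clones. Of the 876, 683 carried a gene symbol, and 337 were below 1 FPKM in both 2-cell libraries. The NT-LW step was the larger by more than 1 for 116 of them and the NT-D step for 33. Near the limit, 155 shared risers had a smaller step between 1 and 1.2, and 49 genes just outside had both steps above 0.8. For the first 3 of each ranking with a placed start, the promoter (250 bases before to 50 bases after the RefSeq gene start) is shown 5′ to 3′ from Sscrofa11.1, since these genes head the rankings by the smaller of both steps. The promoters are those of the risers RBM7 at chr9:41946831-41947130 (plus strand), TDG at chr5:80492246-80492545 (minus strand) and RACK1 at chr2:57279942-57280241 (plus strand), and of the fallers TFPI2 at chr9:73694614-73694913 (minus strand), EAF2 at chr13:138681558-138681857 (minus strand) and USP33 at chr6:135524122-135524421 (plus strand). Capitals mark matches on either strand to TATAAA (the TATA box), CCAAT (the motif named after it), GGGCGG (the GC box), CACGTG (an E box), CCGGAAG (for ETS factors), TGACG (part of the CRE) and TAATCC (for homeodomain factors).
RBM7: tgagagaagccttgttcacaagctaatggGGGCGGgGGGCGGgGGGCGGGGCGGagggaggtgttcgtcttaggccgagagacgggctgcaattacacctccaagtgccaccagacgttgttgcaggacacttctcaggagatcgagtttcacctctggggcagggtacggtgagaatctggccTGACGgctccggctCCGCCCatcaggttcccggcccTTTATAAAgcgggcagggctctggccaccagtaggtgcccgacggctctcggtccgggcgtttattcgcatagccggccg
TDG: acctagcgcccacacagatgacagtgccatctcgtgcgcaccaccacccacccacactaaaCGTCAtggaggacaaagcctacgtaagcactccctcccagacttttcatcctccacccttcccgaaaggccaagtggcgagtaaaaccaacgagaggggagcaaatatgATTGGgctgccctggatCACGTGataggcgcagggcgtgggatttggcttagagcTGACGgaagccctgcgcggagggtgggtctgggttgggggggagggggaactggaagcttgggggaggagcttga
RACK1: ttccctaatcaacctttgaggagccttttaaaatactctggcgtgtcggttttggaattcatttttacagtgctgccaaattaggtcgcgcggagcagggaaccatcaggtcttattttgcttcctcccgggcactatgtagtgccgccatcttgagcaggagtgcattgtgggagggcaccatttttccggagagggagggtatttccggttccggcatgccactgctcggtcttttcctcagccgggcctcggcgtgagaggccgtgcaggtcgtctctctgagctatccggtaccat
TFPI2: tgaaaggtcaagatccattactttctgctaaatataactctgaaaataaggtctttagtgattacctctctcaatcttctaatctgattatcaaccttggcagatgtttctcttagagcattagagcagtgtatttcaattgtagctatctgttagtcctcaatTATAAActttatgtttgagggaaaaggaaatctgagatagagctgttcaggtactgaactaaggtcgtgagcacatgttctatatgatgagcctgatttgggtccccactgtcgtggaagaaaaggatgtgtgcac
EAF2: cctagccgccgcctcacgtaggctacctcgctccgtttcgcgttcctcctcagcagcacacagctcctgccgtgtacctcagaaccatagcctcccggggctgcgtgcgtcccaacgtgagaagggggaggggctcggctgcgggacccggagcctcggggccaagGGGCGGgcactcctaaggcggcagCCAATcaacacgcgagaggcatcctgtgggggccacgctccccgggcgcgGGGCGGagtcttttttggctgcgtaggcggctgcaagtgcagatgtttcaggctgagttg
USP33: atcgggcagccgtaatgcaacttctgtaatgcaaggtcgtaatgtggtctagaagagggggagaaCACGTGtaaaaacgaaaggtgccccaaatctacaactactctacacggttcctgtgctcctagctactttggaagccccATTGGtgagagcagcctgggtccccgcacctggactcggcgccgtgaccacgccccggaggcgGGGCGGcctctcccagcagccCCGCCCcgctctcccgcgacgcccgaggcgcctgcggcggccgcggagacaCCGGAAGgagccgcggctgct

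The RBM7 promoter held 4 GC box matches on the upper strand and 1 on the lower, and its pair of TATAAA matches, at -30 and -28 from the gene start, overlapped on opposite strands. RACK1 held none of the 7 motifs. Of the fallers, TFPI2 had the lowest GC content, 38.0%, with 1 TATAAA match at -86, against 67.3% in EAF2. Over all 6135 promoters of compared genes TATAAA was present in 8.26%, CCAAT in 38.0%, GGGCGG in 63.5%, CACGTG in 10.1%, CCGGAAG in 17.2%, TGACG in 31.6% and TAATCC in 5.41%. Only 619 of the 876 shared risers had a placed promoter, so a comparison of their shares with those of all genes is void. A match describes letters in this window and no more.

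RBM7, an RNA-binding subunit of the complex that hands nuclear RNA to the exosome, headed the risers ranked by the smaller of both steps as deposited. The order among the first is not fixed, since the smaller step was 5.94 for RBM7 and 6.03 for TDG after scaling. The FPKM values of RBM7 were 0.96, 131, 0.60 and 141, so both 4-cell libraries lay far above both 2-cell libraries, and the steps were 6.07 in NT-D and 6.47 in NT-LW. TDG, the thymine glycosylase that removes oxidised methylcytosine during DNA demethylation, went from 0.11 to 72.7 FPKM in NT-D and from 0.15 to 103.7 FPKM in NT-LW. The 2-cell values rested on 6 and 9 fragments, and the steps were 6.05 and 6.51. RACK1, a scaffold protein of the small ribosomal subunit, was at 0.48, 89.9, 1.11 and 144 FPKM. Its steps were 5.94 and 6.10.

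NANOG, a homeodomain factor of pluripotent cells, had 0 fragments in both 2-cell libraries, and its NT-LW step of 7.04 exceeded those of RBM7 and TDG. It stood at 56.4 FPKM in NT-D and at 130.4 FPKM in NT-LW 4-cell embryos, at least 312-fold and 806-fold above the level of 3 fragments in the 2-cell library. TFAM, which packages and transcribes mitochondrial DNA, was at 0.24, 68.9, 0.27 and 99.9 FPKM, with steps of 5.82 and 6.32. CLK1, a kinase of SR splicing factors, was at 1.12, 88.7, 1.15 and 98.9 FPKM. These 3 genes were also low in the IV-D 2-cell library, at 0.10, 0.12 and 4.99 FPKM, and stood at 269, 146 and 118 FPKM at IV-D 4-cell. RTN4, a membrane protein that shapes the endoplasmic reticulum, was at 0.80, 105, 0.96 and 71.0 FPKM. Of the 10 leading risers only RTN4, with steps of 5.89 and 5.20, and RSRP1, with steps of 5.30 and 4.93, had the larger step in NT-D. CDV3 was at 1.75, 163, 2.12 and 239.6 FPKM and RSRP1 at 3.22, 166, 4.15 and 156 FPKM.

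CCN2, a secreted growth factor of connective tissue, differed in its in vivo course. It was at 0.78, 65.0, 0.65 and 62.8 FPKM in the clones, with steps of 5.21 and 5.27, whereas the IV-D libraries held 0.02 FPKM at 2-cell, 3.37 FPKM at 4-cell and 33.5 FPKM at 8-cell. Both clone libraries of the 8-cell stage were near their 4-cell level, at 62.7 FPKM in NT-D and 56.2 FPKM in NT-LW.

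**Figure D3:**
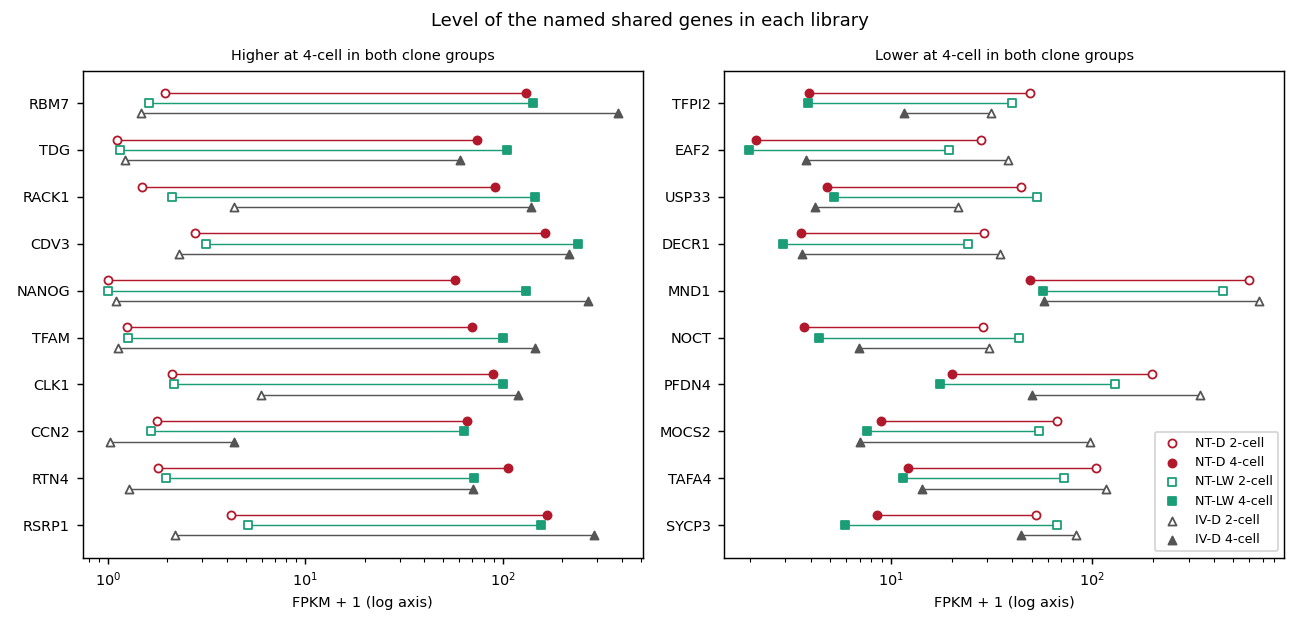
FPKM + 1 (log axis) at 2-cell (open symbols) and 4-cell (filled symbols) for the 10 genes with the largest shared rise (left) and the 10 with the largest shared fall (right), for NT-D, NT-LW and IV-D libraries. The pairs of both clone groups lie close together, and CCN2 has the shortest IV-D line among the risers, from 0.02 to 3.37 FPKM.

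Genes that fell in both groups had a smaller median step, -1.45 in NT-D and -1.71 in NT-LW, and 164 of the 448 had a smaller step between 1 and 1.2 in size, with 29 genes just outside at more than 0.8. MND1, a meiotic protein that acts in strand exchange between homologues, was at 597, 48.1, 444 and 55.8 FPKM, with steps of -3.61 and -2.97. SYCP3, a component of the synaptonemal complex, was at 51.3, 7.50, 65.3 and 4.92 FPKM. Its steps were -2.62 and -3.49, while the IV-D step was -0.91. TFPI2, a Kunitz-type protease inhibitor, was at 48.0, 2.92, 38.7 and 2.88 FPKM, and its steps were -3.64 and -3.35. EAF2, a partner of the elongation factor ELL, was at 26.9, 1.15, 18.4 and 0.98 FPKM. USP33, a deubiquitinating enzyme, was at 43.4, 3.82, 52.2 and 4.23 FPKM. In these genes each 2-cell library was above each 4-cell library.

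DECR1, a reductase in the oxidation of unsaturated fatty acids, was at 27.9, 2.59, 23.1 and 1.92 FPKM, and MOCS2, which makes molybdopterin, at 65.3, 7.96, 53.6 and 6.64 FPKM. PFDN4, a subunit of the chaperone prefoldin, was at 197.6, 19.0, 129 and 16.5 FPKM. NOCT, the circadian protein nocturnin, was at 27.6, 2.70, 42.1 and 3.39 FPKM, and TAFA4, a secreted protein, at 103 FPKM in the NT-D 2-cell library and at 70.9 and 10.5 FPKM in the NT-LW ones. The steps of these 5 genes lay between -3.31 and -2.65.

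The shared changes were then read in libraries that the calls of shared genes did not use. Whether these libraries had a part in the selection of the deposited table is not known. In the IV-D step from 2-cell to 4-cell, 2405 genes rose (31.3% of those compared) and 880 fell (11.5%) as deposited. The IV-D libraries differed more in scale than the clone ones, with median-ratio factors of 0.610 at 2-cell and 0.963 at 4-cell, and after scaling 21.7% rose and 23.0% fell. The median IV-D step over all genes was 0.38 as deposited and -0.09 after scaling. Of the 876 shared risers 770 also rose in IV-D embryos (87.9%), making up 32.0% of the IV-D risers, and 0 fell. Their median IV-D step was 2.69, beside 1.91 in NT-D and 2.13 in NT-LW, and for 237 genes the IV-D step exceeded both clone steps by more than 1. After scaling these values were 2.37, 1.78 and 2.19 with 162 such genes, and 715 of the 876 rose in IV-D embryos (81.6%) and 1 fell. Of the 448 shared fallers 301 also fell in IV-D embryos (67.2%), or 34.2% of the IV-D fallers, with a median step of -1.44. After scaling 395 of them fell (88.2%), with a median step of -2.08. Between the 1-cell and the 8-cell stage of both clone groups, 24.1% of the compared genes rose and 32.3% fell. Among the shared risers 652 were also higher at 8-cell than at 1-cell in both groups (74.4%, 35.2% of that list), and among the shared fallers 238 were lower (53.1%, 9.58% of that list).

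Not every shared change had its counterpart in vivo. A total of 106 shared risers and 147 shared fallers were not called in the IV-D step, and in 59 and 51 genes both clone steps exceeded the IV-D step by more than 1. After scaling, 161 and 53 were not called, and 88 and 19 genes had clone steps larger by more than 1. The reverse, an IV-D step larger in size than both clone steps by more than 1, held for 237 shared risers and 15 shared fallers. After scaling these numbers were 162 and 52, so for fallers the balance turned with the scaling. The genes named next were chosen after their values were seen, as the largest shared steps among genes whose IV-D step was under 0.5 as deposited. BDNF, a neurotrophin, was at 1.84, 27.9, 1.55 and 26.1 FPKM in the clones, against 2.06 and 1.35 FPKM at IV-D 2-cell and 4-cell. At the 8-cell stage it was back at 1.73 FPKM in NT-D and 4.85 FPKM in NT-LW embryos. ANGPTL1, an angiopoietin-like secreted protein, followed the same course, with 0.60, 12.0, 0.87 and 15.4 FPKM in the clones, 0.36 and 0.67 FPKM in IV-D embryos, and 2.62 and 1.77 FPKM at the NT-D and NT-LW 8-cell stage. High values of both genes were thus found in the 4-cell clone libraries alone among the 12 clone and in vivo libraries from 2-cell to morula.

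B4GALT4, a galactosyltransferase of the Golgi, was at 2.55, 14.3, 2.28 and 14.8 FPKM and stayed at 24.4 and 22.4 FPKM at the 8-cell stage, whereas the IV-D libraries held 1.23, 2.07 and 9.59 FPKM at 2-cell, 4-cell and 8-cell. SELENOW, a small selenoprotein, was at 44.8, 134, 45.0 and 150.1 FPKM in the clones and at 41.0 and 35.7 FPKM in IV-D embryos. Among the fallers, VPS37A, a subunit of the ESCRT-I sorting complex, was at 51.7, 10.5, 77.2 and 11.4 FPKM, against 69.4 and 54.5 FPKM in IV-D. PCGF6, a subunit of a variant polycomb complex, was at 16.7, 3.28, 23.0 and 3.79 FPKM, against 18.4 and 17.4 FPKM. RAD1, a clamp protein of the DNA damage checkpoint, was at 51.7, 13.8, 55.8 and 11.2 FPKM, against 28.7 and 22.1 FPKM. KCTD5 and NSMCE4A showed the same pattern, with clone steps between -3.03 and -1.85 and IV-D steps of 0.03 and -0.28. After scaling the IV-D steps of these fallers were larger in size, from -0.55 in KCTD5 to just past the limit of 1 in RAD1. Each rests on 1 library per condition, and the difference between clone and in vivo embryos was not tested.

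Gene lists for known functions were counted next. Beside them stand the shares of all genes compared, of which 16.4% rose and 7.91% fell in NT-D while 16.3% rose and 19.6% fell in NT-LW, and the median steps of all genes, 0.18 and -0.17. Several lists had a share of NT-D risers near that of all genes. Risers in NT-D were 18.5% of the cell cycle genes, 18.9% of the nuclear transport genes, 19.5% of the translation initiation factors, 15.7% of the ribosome assembly factors and 20.5% of the RNA polymerase II factors. Some of these lists departed further in NT-LW, where 31.5% of the cell cycle genes fell. Risers in NT-LW were 28.6% of the ribosome assembly factors and 26.8% of the translation initiation factors. Nuclear transport genes stayed near all genes there, with 15.1% rising and 20.8% falling. Factors of genome activation and pluripotency rose in part. Of 20 compared, 9 rose and 0 fell in NT-D, and 11 rose and 2 fell in NT-LW, with medians of 0.81 and 1.71. Beside NANOG, MYC was at 0.08, 10.9, 0.18 and 39.9 FPKM, GSC, a homeodomain factor, at 0.39, 30.3, 0.65 and 31.2 FPKM, and DPPA2, a chromatin protein of early embryos, at 1.78, 22.4, 2.80 and 43.1 FPKM. KLF4 and KLF17, Krüppel-like factors, rose in NT-LW only, as described below. The demethylase KDM5A was at 7.83, 12.0, 15.2 and 15.7 FPKM and was called in neither group.

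RNA polymerase II subunits and general factors were divided, with 16 risers and 10 fallers of 78 in NT-D and 19 and 16 in NT-LW. The list medians were 0.18 and -0.20, and -0.08 and -0.05 after scaling. SUPT4H1, a subunit of the elongation factor DSIF, was at 0.28, 31.8, 0.24 and 74.2 FPKM. The Mediator subunit MED10 was at 4.89, 82.3, 6.23 and 194 FPKM, and POLR2B, the second-largest polymerase subunit, at 0.33, 9.42, 0.28 and 14.0 FPKM.

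Splicing factors rose more often than they fell, 22 against 8 of 72 in NT-D and 26 against 6 in NT-LW, with 19 shared risers and medians of 0.45 in both groups. HNRNPA2B1, an abundant nuclear RNA-binding protein, was at 34.5, 341, 32.9 and 519 FPKM, and SRSF2, an SR protein, at 4.36, 61.3, 7.65 and 95.5 FPKM. In IV-D embryos 46 of the 72 rose (63.9%, beside 31.3% of all genes), with a median of 1.42, and 34 rose after scaling. Factors of RNA export and nuclear transport had 10 risers and 3 fallers of 53 in NT-D and 8 and 11 in NT-LW, with medians of 0.24 and -0.13. The export adaptor ALYREF was at 2.64, 42.0, 12.4 and 53.1 FPKM and the export receptor NXF1 at 0.51, 7.33, 1.07 and 5.00 FPKM.

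Ribosomal protein genes rose in large part. Of 44 compared, 25 rose and 3 fell in NT-D, 33 rose and 0 fell in NT-LW, and all 25 NT-D risers rose in NT-LW too. The medians were 1.49 and 2.22 as deposited and 1.23 and 2.33 after scaling, and those of IV-D embryos 2.30 and 1.76. RPLP2 was at 1.10, 45.9, 0.91 and 69.5 FPKM, RPS13 at 8.02, 111, 6.73 and 224 FPKM, and RPS3A at 10.9, 114, 6.30 and 188 FPKM. Many ribosomal protein genes have near-identical processed copies, so their counts are uncertain. Factors of rRNA synthesis and ribosome assembly had 11 risers and 5 fallers of 70 in NT-D and 20 and 5 in NT-LW, with medians of 0.45 and 0.37. FBL, the methyltransferase fibrillarin, was at 0.85, 9.80, 0.91 and 31.3 FPKM, while TAF1A, a subunit of the RNA polymerase I factor SL1, went the other way at 23.5, 2.13, 17.7 and 2.19 FPKM. Of 41 translation initiation factors 8 rose and 2 fell in NT-D and 11 rose and 3 fell in NT-LW, with medians of 0.16 and 0.44, and EIF6, which keeps the large ribosomal subunit free, was at 8.85, 48.8, 8.86 and 105 FPKM. Of 17 tRNA synthetases and partners, 6 rose and 0 fell in NT-D and 5 rose and 1 fell in NT-LW, with medians of 0.30 and 0.10. After scaling 2 rose and 2 fell in NT-D.

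**Figure D4:**
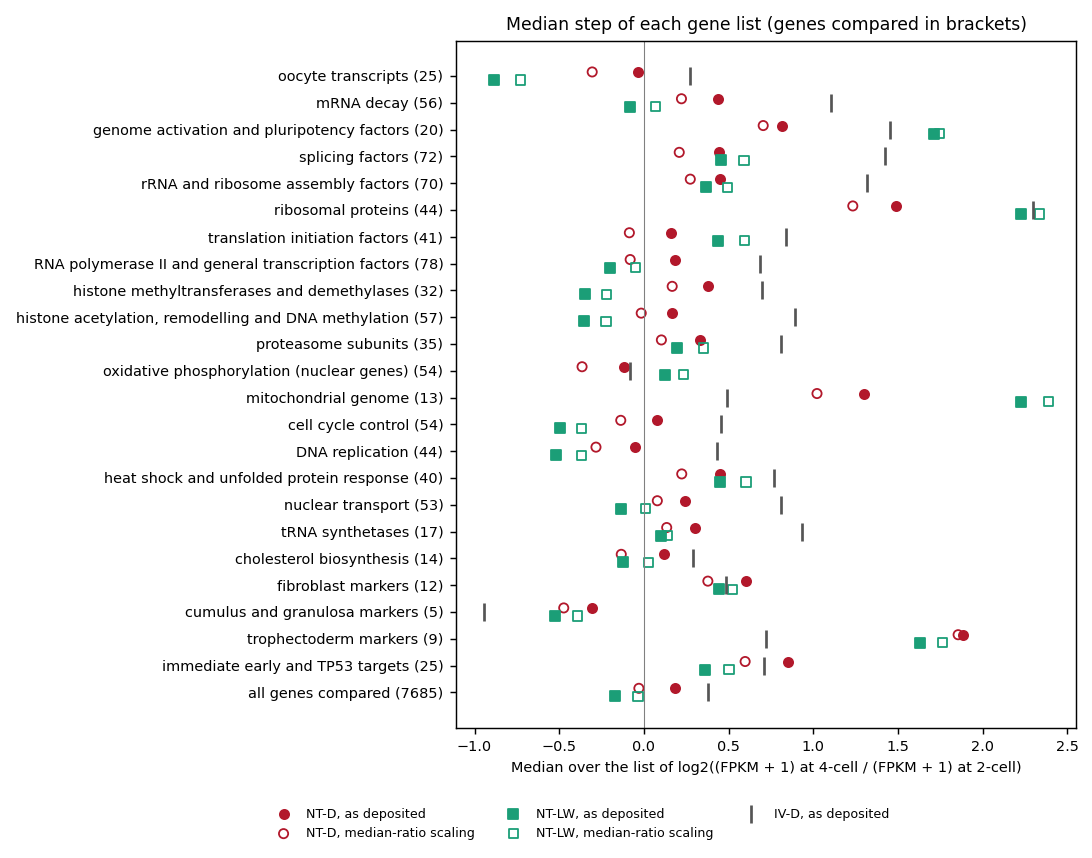
Median step of each gene list (horizontal axis, log2), with the number of genes compared in brackets, for NT-D (circles) and NT-LW embryos (squares) as deposited (filled) and after median-ratio scaling (open), and for IV-D embryos as deposited (bars). Ribosomal proteins, the mitochondrial genome, genome activation factors and trophectoderm markers lie above 0 in both clone groups under both scalings, and several lists near 0 change side with the scaling.

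Most transcripts of the mitochondrial genome rose in each clone group. Of 13 compared, 8 rose and 1 fell in NT-D and 12 rose and 0 fell in NT-LW, with medians of 1.30 and 2.23, and 7 and 12 rose after scaling. COX1, a subunit of cytochrome c oxidase, was at 11987, 35335, 7941 and 35546 FPKM, and ND4, a subunit of complex I, at 4448, 13729, 2121 and 12864 FPKM. In IV-D embryos 0 of the 13 were called, with a median step of 0.49 as deposited and -0.17 after scaling and COX1 at 15032 and 21085 FPKM. The nuclear genes of oxidative phosphorylation did not share this direction, with 6 risers and 9 fallers of 54 in NT-D and 7 and 5 in NT-LW and medians of -0.12 and 0.13. NDUFS8, a subunit of complex I, was at 0.27, 11.5, 0.33 and 10.7 FPKM, and COX7A2L, an assembly factor of respiratory supercomplexes, at 202, 62.7, 165 and 36.1 FPKM.

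Histone methyltransferases and demethylases had 8 risers and 0 fallers of 32 in NT-D, and 6 risers and 7 fallers in NT-LW, with medians of 0.38 and -0.35. EED, a core subunit of polycomb repressive complex 2, was at 1.09, 19.0, 0.82 and 23.7 FPKM, and NSD1, a methyltransferase for histone H3 lysine 36, at 1.95, 34.8, 5.87 and 38.5 FPKM. Of 57 genes of histone acetylation, remodelling and DNA methylation, 11 rose and 2 fell in NT-D and 6 rose and 13 fell in NT-LW, with medians of 0.16 and -0.35. UHRF1, which guides maintenance DNA methylation, was at 3.48, 0.90, 9.02 and 0.99 FPKM, and DNMT3B, a de novo DNA methyltransferase, at 4.02, 1.56, 10.7 and 0.99 FPKM.

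Oocyte transcripts fell in part. Of 25 compared, 3 rose and 5 fell in NT-D and 0 rose and 11 fell in NT-LW, 4 of them in both, with medians of -0.03 and -0.89. The contrast between the groups was smaller after scaling. Then 2 rose and 8 fell in NT-D and 0 rose and 9 fell in NT-LW. Of these, 6 fell in both groups, and the medians were -0.31 and -0.73. OOEP, a subunit of the subcortical maternal complex, was at 1243, 323, 1051 and 258 FPKM, a fall in both groups. ZAR1, which represses translation of maternal RNA, was at 9.46, 2.62, 44.0 and 3.91 FPKM, and PABPN1L, a poly(A)-binding protein of the oocyte, at 7.04, 2.88, 109 and 2.52 FPKM. GDF9, a growth factor secreted by oocytes, was at 44.8, 111, 117 and 113 FPKM and BMP15, its relative, at 142, 355, 521 and 389 FPKM. In both of these genes the NT-D 2-cell library was the lowest of the 4.

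Factors of mRNA decay had 14 risers and 2 fallers of 56 in NT-D and 11 and 6 in NT-LW, with medians of 0.44 and -0.08, against 31 risers in IV-D embryos (55.4%) and 21 there after scaling. CNOT9, a subunit of the CCR4-NOT deadenylase, was at 0.69, 22.1, 1.58 and 37.5 FPKM, EXOSC10, the nuclear exonuclease of the exosome, at 0.46, 20.4, 0.52 and 26.1 FPKM, and PABPC1, the cytoplasmic poly(A)-binding protein, at 0.54, 11.3, 0.56 and 21.4 FPKM. Proteasome subunits were split, with 7 risers and 7 fallers of 35 in NT-D and 6 and 10 in NT-LW and medians of 0.33 and 0.20. PSMB7 was at 15.2, 84.6, 17.1 and 148 FPKM and PSMA4 at 145.7, 27.8, 102 and 23.0 FPKM, both in the catalytic core.

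Cell cycle genes had 10 risers and 5 fallers of 54 in NT-D and 8 and 17 in NT-LW, with medians of 0.08 and -0.50. CCNG2, an atypical cyclin of arrested cells, was at 0.27, 33.0, 0.61 and 25.4 FPKM. CCND2, a cyclin of the G1 phase, was at 0.08, 4.73, 0.24 and 9.49 FPKM, against 0.14 and 0.50 FPKM in IV-D embryos, and CHEK2, a checkpoint kinase, at 1.95, 9.56, 3.40 and 26.4 FPKM. DNA replication genes had 6 risers and 7 fallers of 44 in NT-D and 5 and 11 in NT-LW, with medians of -0.05 and -0.52. ORC1, a subunit of the origin recognition complex, was at 4.57, 26.4, 7.62 and 34.4 FPKM, and TYMS, which makes thymidylate, at 33.4, 9.00, 81.4 and 11.5 FPKM.

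Stress genes rose in part in both groups. Immediate early genes and targets of p53 had 10 risers and 1 faller of 25 in NT-D and 10 and 4 in NT-LW, with 9 risers in common and medians of 0.85 and 0.36. PMAIP1, the pro-apoptotic protein NOXA, was at 1.90, 73.0, 1.18 and 38.3 FPKM in the clones and at 0.88 and 5.93 FPKM in IV-D embryos. Heat shock and unfolded protein response genes had 13 risers and 2 fallers of 40 in NT-D and 12 and 4 in NT-LW, with medians of 0.45 in both. HSPA8, a constitutive chaperone, was at 53.0, 288, 84.6 and 476 FPKM, and ATF3, a stress-induced transcription factor, at 0.08, 3.63, 0.26 and 7.74 FPKM, against 0.15 and 0.87 FPKM in IV-D embryos. Cholesterol synthesis genes had 1 riser and 3 fallers of 14 in NT-D and 0 and 2 in NT-LW, with medians of 0.12 and -0.12. SQLE, the squalene epoxidase, was at 25.1, 11.9, 33.5 and 9.69 FPKM.

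Lists of other cell types also moved. Of 15 trophectoderm markers in the table, 9 reached 1 FPKM in at least 1 of the 4 libraries and were compared. Of these 9, 6 rose in each group, 5 of them in both, and 1 fell in NT-LW, with medians of 1.88 and 1.63. PTGES, GATA3 and TFAP2C passed the filter through their 4-cell values alone, so the counts and medians lean towards risers. In IV-D embryos 4 of the 9 rose and 0 fell as deposited, with a median of 0.72. The summed level of all 15 markers went from 9.04 to 127 FPKM in NT-D and from 19.7 to 101 FPKM in NT-LW. Most of the 4-cell sums came from PTGES and OCLN, while KRT8, KRT18 and ELF3 stayed below 1 FPKM. PTGES, a prostaglandin E synthase, was at 0.28, 69.0, 0.85 and 49.5 FPKM, GATA3, a transcription factor, at 0.13, 3.18, 0.17 and 3.48 FPKM, and OCLN, a tight junction protein, at 3.72, 30.6, 7.29 and 24.6 FPKM. OCLN was already at 12.0 FPKM in the NT-D oocyte library and at 11.0 FPKM at NT-D 1-cell. Of 12 fibroblast markers 3 rose in NT-D and 4 in NT-LW, CCN2 and VIM among them. Of 5 cumulus markers only HAS2, a hyaluronan synthase, rose, at 0.05, 5.21, 0.00 and 18.8 FPKM. With 0 fragments at NT-LW 2-cell, this was at least a 563-fold difference in NT-LW. The 7 cumulus genes of the table summed to 147, 87.5, 119 and 85.3 FPKM, most of it from VCAN, the proteoglycan versican, at 127, 62.8, 97.6 and 50.4 FPKM, while PTGS2 and GREM1 were at 0.90 FPKM or less in both 4-cell libraries and EREG below 0.1 FPKM in all 4. The part of other cell types in the step was not tested.

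Genes called in 1 group only often had a step of the same sign in the other, as did most genes compared. Of the 369 genes higher in NT-D only, 329 had a step of the same sign in NT-LW and 113 had steps that differed by more than 1. For the 376 genes higher in NT-LW only these numbers were 345 and 138, and for the 158 genes lower in NT-D only 153 and 28. For the 1047 genes lower in NT-LW only they were 805 and 624. Over all 7685 genes compared, 5687 had steps of the same sign, and 1490 (19.4%) had steps that differed by more than 1. The genes named next were called in the same class under both scalings and had a step under 0.5 in the other group. With 1 library per condition the difference between the groups was not tested for any of them.

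KLF17, a transcription factor of the early embryo, was the leading gene higher in NT-LW only. It had 1, 0, 0 and 399 fragments, or 0.03, 0.00, 0.00 and 10.7 FPKM, so that NT-LW 4-cell embryos were at least 141-fold above the level of 3 fragments. At the IV-D step it went from 0.00 to 96.2 FPKM. KLF4 was at 2.55, 2.27, 4.53 and 17.7 FPKM, with steps of -0.12 in NT-D and 1.76 in NT-LW, and reached 34.6 FPKM at IV-D 4-cell. At the 8-cell stage KLF17 was at 6.23 FPKM in NT-D and 3.56 FPKM in NT-LW, and KLF4 at 84.6 and 79.3 FPKM. COX17, a copper chaperone of cytochrome c oxidase, was at 35.9, 42.9, 12.8 and 71.6 FPKM, and ETHE1, a mitochondrial enzyme of sulfide breakdown, at 5.29, 7.27, 6.26 and 30.2 FPKM. CCL16, a chemokine, had 1, 3, 0 and 315 fragments and RFTN2, a lipid raft protein, 7, 12, 11 and 328. Of these 376 genes 228 rose in IV-D embryos as well (60.6%), beside the 31.3% of all genes, and 173 after scaling (46.0%, beside 21.7%).

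Among genes higher in NT-D only, ZNF566, a zinc finger protein, was at 5.56, 21.5, 9.03 and 9.22 FPKM, with steps of 1.78 in NT-D and 0.03 in NT-LW. CFL1, the actin-severing protein cofilin, was at 3.75, 14.3, 7.51 and 10.7 FPKM. KDELR1, which returns proteins to the endoplasmic reticulum, was at 5.16, 17.3, 17.2 and 14.0 FPKM, CST3, the protease inhibitor cystatin C, at 3.48, 12.3, 10.5 and 10.7 FPKM, and H1-3, a linker histone, at 3.57, 11.8, 9.93 and 11.4 FPKM. In the latter 3 genes, and in TSPAN3 at 13.4, 36.4, 43.6 and 42.2 FPKM, the NT-D 2-cell library was the low one of the clone libraries. The NT-LW 2-cell library was already at the 4-cell level. IV-D 2-cell embryos were at 1.97, 1.83, 5.51 and 14.6 FPKM for KDELR1, CST3, H1-3 and TSPAN3. Of the 369 genes 244 rose in IV-D embryos (66.1%), and 189 after scaling (51.2%).

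Genes lower in NT-D only were high at NT-D 2-cell. GMNN, or geminin, which blocks a repeat of DNA replication, was at 303, 87.1, 188 and 153 FPKM, with steps of -1.79 and -0.29, and the IV-D step was -1.47. UBE2V2, a partner of the ubiquitin-conjugating enzyme UBC13, was at 625, 236, 379 and 282 FPKM, and MRPS31, a mitochondrial ribosomal protein, at 201, 74.2, 142 and 107 FPKM. NDUFS5, a subunit of complex I, was at 86.6, 30.9, 51.8 and 40.2 FPKM and ACTR6, an actin-related protein of a remodelling complex, at 87.9, 33.3, 64.3 and 51.7 FPKM. GNAT2, a transducin of cone cells, was at 18.2, 4.84, 7.18 and 6.01 FPKM.

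The largest class of 1 group was that of 1047 genes lower in NT-LW only, of which 624 had steps that differed by more than 1 between the groups and 604 an NT-D step under 0.5 in size. After scaling 684 genes were in this class, and 679 of these were the same genes. TENT5B, a poly(A) polymerase, was at 0.96, 0.83, 15.8 and 0.56 FPKM, with steps of -0.10 and -3.42. NANOS1, a translational repressor of germ cells, was at 1.74, 1.48, 24.0 and 1.83 FPKM, and SUN2, which links the nuclear envelope to the cytoskeleton, at 4.43, 3.58, 32.0 and 3.45 FPKM. DTX2, an E3 ubiquitin ligase, was at 1.38, 0.74, 11.7 and 0.69 FPKM, PTOV1 at 1.08, 1.56, 12.9 and 0.53 FPKM, and CCNP, a cyclin, at 1.03, 0.85, 16.7 and 1.09 FPKM. In all 6 genes the NT-LW 2-cell library was high and the other 3 were at 4.43 FPKM or less.

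This class was followed back to the preceding stages. From 1-cell to 2-cell, 24.1% of the compared genes fell in NT-D embryos and 3.97% in NT-LW embryos. Of all 1509 genes that fell from 2-cell to 4-cell in NT-LW embryos, 715 had fallen from 1-cell to 2-cell in NT-D embryos, which is 47.4% of the NT-LW list and 38.6% of the NT-D list, with no library in common between these steps. After scaling the overlap was 347 of 1230 genes (28.2%), beside 9.47% of all genes compared. Of the class of 1047, 610 had fallen in NT-D from 1-cell to 2-cell and 12 in NT-LW, a count that shares the NT-D and the NT-LW 2-cell library with the choice of the class. The median level of the 1047 genes was 14.7, 5.16 and 4.29 FPKM at NT-D 1-cell, 2-cell and 4-cell, and 10.7, 14.0 and 4.07 FPKM at the same NT-LW stages. In IV-D embryos it was 9.01, 3.49 and 4.03 FPKM. The 2-cell and 4-cell clone values chose this class. The high NT-LW 2-cell median and its drop to 4-cell are therefore fixed by the choice and given as a description. The choice also left out genes that fell from 2-cell to 4-cell in NT-D, which favours genes already low at NT-D 2-cell. The NT-D drop from 1-cell to 2-cell is thus a description too. Over all genes compared, the median went from 10.03 to 5.89 FPKM between these stages in NT-D and from 9.26 to 9.07 FPKM in NT-LW.

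**Figure D5:**
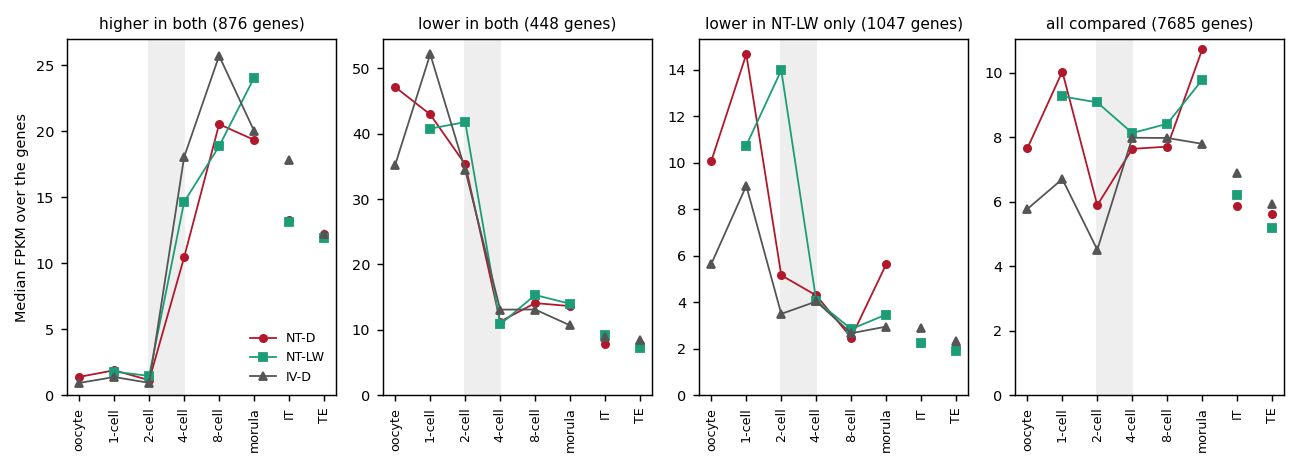
Median FPKM over the genes of a class (vertical axis) at each stage of the NT-D, NT-LW and IV-D series, with the 2-cell to 4-cell step shaded. IT (blastocyst part with inner cells and trophectoderm) and TE (trophectoderm) are parts cut from blastocysts and are not joined to the earlier stages by a line. Shared risers and fallers turn between 2-cell and 4-cell in both clone groups by the choice of these classes. They also turn in IV-D embryos, whose values took no part in that choice. The 1047 genes lower in NT-LW only drop between 1-cell and 2-cell in NT-D, from 14.7 to 5.16 FPKM. By the choice of the class, they drop between 2-cell and 4-cell in NT-LW, from 14.0 to 4.07 FPKM. The NT-D 2-cell value also took part in this choice, so the NT-D drop is a description as well.

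Transcripts of this class also differed in base composition. The median GC content of the RefSeq transcripts was 51.5% for genes lower in NT-LW only (872 of 1047 with a value), 43.0% for genes lower in both groups (366 of 448) and 46.5% for genes higher in NT-D only (297 of 369). For the other classes and for all genes compared under 80% of the genes had a value, so the comparison of GC content with them is void. The counted transcript length had a median of 3154 bases for genes lower in NT-LW only, 2692.5 bases for shared risers, 2401 bases for shared fallers and 3135 bases for all genes compared. GC content and library scale moved together with the NT-LW only class, and their part in it was not tested.

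Opposite calls were rare, with 16 genes as deposited and 8 after scaling, 6 of them the same genes. PPP2R1A, a scaffold subunit of protein phosphatase 2A, was at 1.99, 6.16, 26.1 and 5.81 FPKM, with steps of 1.26 in NT-D and -2.0 in NT-LW. UBE2S, the ubiquitin-conjugating enzyme of the anaphase-promoting complex, was at 34.3, 109, 302 and 114 FPKM, with steps of 1.64 and -1.40. In both genes the 4-cell libraries lay near each other, and the 2-cell libraries stood on either side of them. PIGW, an enzyme of GPI anchor synthesis, was at 3.25, 0.52, 5.19 and 13.5 FPKM, with steps of -1.48 and 1.22, and here the 4-cell libraries differed most. ZP3, a zona pellucida protein, was at 9.77, 20.8, 42.8 and 19.3 FPKM and was an opposite call as deposited but was called in neither group after scaling.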

How the data were processed

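The deposited table gives FPKM values of 8603 genes in 23 libraries. According to the submitters' processing notes, reads were aligned to Sscrofa11.1 with HISAT2 2.0.4, counted per gene with HTSeq 0.9.1, and the authors scaled the counts to FPKM by depth and transcript length. The notes also name DESeq, whereas the study's methods give DEGSeq for the libraries without replicates. The name of the deposited table calls its genes differentially expressed, and the rule that chose the 8603 is not given in the sources used here. Symbols matched 7371 gene IDs, and 6853 had a single RefSeq position.

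Samples were grouped by their titles. Steps were computed with pandas 2.3.3, scipy 1.17.1 and numpy 2.4.6 under Python 3.11.15 as log2 ratios of FPKM + 1, so folds of low genes are understated. With 1 library per condition no test between conditions was made. Whole fragments were recovered from the steps of the FPKM values in all 8603 genes, and scripts were tested on simulated data. Counting limits cover counting error only, as amplified fragments are not independent molecules. The median-ratio factors used genes above 0 in the 4 clone libraries. Other settings tried were equal FPKM sums, a pseudocount of 0.1, a minimum of 5 FPKM, an exact binomial test on fragments and, added after the data were seen, the scaling of the IV-D step. Sequences and positions came from the RefSeq annotation of Sscrofa11.1.

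Genes named from the classes had a symbol and FPKM of at least 10 in a library of the step, and were called under both scalings: 10 shared genes each way by the smaller step, 6 each way of 1 group only with a step under 0.5 in the other, and up to 6 opposite genes. Besides, with no such minimum, up to 4 genes per list called as deposited in either group were named, and of 14 genes the study names the 5 in the table, called or not. The genes whose IV-D step was under 0.5, the opposite gene ZP3, the marker genes and those followed through all stages were added after their values were seen. The step, the gene lists and the rules were chosen with earlier results of these data known.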

Additional observations from a re-analysis of the deposited data

Results flagged for a closer look

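The 4 genes below moved in opposite directions in the clone groups under both scalings. In each case the difference between the groups was not tested, since each condition had 1 library. The NT-D step minus the NT-LW step was 3.26 for PPP2R1A, 3.03 for UBE2S and -2.71 for PIGW on the log2 scale. It was 8.26 for ENSSSCG00000032207, a gene of 264 counted bases without a symbol, which had 0, 186, 29 and 0 fragments in the NT-D 2-cell, NT-D 4-cell, NT-LW 2-cell and NT-LW 4-cell libraries. This gene had at most 3 fragments in each of the other libraries of the series.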

How the results depend on the processing

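The shared classes stayed within 1.5 times their size under all 5 alternatives, between 608 and 1092 risers and between 406 and 589 fallers. Median-ratio scaling gave 188 genes higher and 411 lower in NT-D only, 569 higher and 684 lower in NT-LW only, 8 opposite genes, and 347 genes that fell in NT-LW after an earlier fall in NT-D. Equal FPKM sums gave 98 genes lower in NT-D only. A pseudocount of 0.1 gave 558 genes higher in NT-D only and 54 opposite genes, and a minimum of 5 FPKM gave 10 opposite genes. The cause of these shifts was not tested. Scaling of the IV-D step, chosen after seeing the data, moved the shared genes also called there from 770 to 715 risers and from 301 to 395 fallers. The exact binomial test on fragments compares libraries, not conditions, and gave 870 shared risers and 447 shared fallers at an adjusted p under 0.005. No named gene changed direction where it was called, whereas medians of lists near 0 changed sign with the scaling, such as that of RNA polymerase II and general factors in NT-D embryos, from 0.18 to -0.08. Leaving out a library was not run, as it removes a condition. No paired analysis was possible because each condition had 1 library and the result comes from no test. Depth limits genes with few fragments: 129 of the 876 shared risers had 3 fragments or fewer in 1 of the 4 libraries.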
